A study of Mus musculus with 6 samples.

Results

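The presynaptic vesicle release machinery was examined as a list of 35 genes chosen by function: SNARE proteins and *Nsf*, synaptotagmins, complexins, synapsins, vesicle membrane proteins, active zone and priming proteins, *Rab3a* and *Rph3a*. Each of the 35 symbols matched 1 of 55573 gene identifiers in the count table, and all 35 passed the filter on low counts, beside 20241 tested genes in all. Adult C57BL/6J mice, of both sexes in general per the study's methods, received an adeno-associated virus (AAV2) in the vitreous that carried *GFP* in the control group or *Ezh2*, the gene of the catalytic subunit of Polycomb repressive complex 2, in the other group. In both groups the optic nerve was crushed 2 weeks later. Retinal cells that bound an antibody to CD90.2, which is encoded by *Thy1*, and stayed free of a dead-cell dye were sorted 3 days after the crush, and their total RNA was sequenced in 3 libraries per group. The labels call the cells retinal ganglion cells (RGCs), but AAV2 can enter other retinal cells as well, and the sources used here do not give the promoter of the vector or how many mice went into a library. Because the labels do not tie replicates to separate animals, p values measure the spread between these libraries, which may be technical.

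A synaptic vesicle fuses with the plasma membrane when the vesicle SNARE synaptobrevin (*Vamp1*, *Vamp2*) zippers with syntaxin and SNAP-25 on the target membrane. Munc13 and RIM proteins at the active zone prime the vesicle, synaptotagmins sense calcium, and complexins hold and then assist the assembled complex. Rods, cones and bipolar cells of the retina release transmitter at ribbon synapses, which use syntaxin 3 and complexins 3 and 4 in place of syntaxin 1 and complexins 1 and 2 of conventional synapses. Amacrine cells and the central terminals of RGCs use the conventional set, and complexin 3 is also found in some amacrine cells.

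The libraries held 30569933 to 35971192 counts. *Ezh2* stood at 28.8, 34.6 and 32.99 CPM (reads scaled to the library total) in GFP replicates 1 to 3 and at 78.0, 65.3 and 105 CPM in Ezh2 replicates 1 to 3. Transcription factor genes of the labelled cell type were low: *Pou4f1*, a transcription factor of RGCs, averaged 0.331 CPM in the GFP libraries, and *Pou4f2* and *Pou4f3* did not pass the filter. The list of 10 RGC markers summed to 127 to 132 CPM there, most of it from *Thy1*, the gene of the sort antigen, which averaged 90.1 CPM. The Müller glia gene *Glul* averaged 9757 CPM, so the sorted cells held transcripts of other retinal cells. Ezh2 replicate 3 stood apart: 24.8% of tested genes lay above and 38.4% below all 5 other libraries there, and 23 of the 35 release genes lay below. The study left out 1 Ezh2 library, inferred from its heatmap to be this one, so the main comparison used the other 5 libraries, and the 6-library values follow beside it.

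To ask whether *Ezh2* overexpression changed release machinery transcripts, the groups were compared across all genes. The module as a whole moved little, and mostly down. *Rph3a*, encoding the Rab3 effector rabphilin, rose and was the only one of 35 genes called, that is, with a fold over 1.5 and an adjusted p below 0.05 (edgeR quasi-likelihood test, Benjamini-Hochberg adjustment). That is 2.86% of the genes, against 3.73% of all tested genes. At the adjusted p alone, *Rph3a* and *Cplx4* rose, and 9 genes fell by smaller folds of 1.12 to 1.40: *Syt1*, *Syt11*, *Vamp2*, *Sv2a*, *Cplx3*, *Rims1*, *Pclo*, *Unc13b* and *Unc13c*. Of all tested genes 9.38% passed upward and 7.07% downward, beside 5.71% and 25.7% of these genes. Abundant genes passed more often. At 10 CPM or more in the GFP group, a limit chosen after the values were seen, 9 of 22 release genes passed downward, against 11.4% of all tested genes at that level. The median log2 fold change was -0.11 over the 35 genes and -0.0078 over all tested genes, and 22 of 35 genes lay below 0, against 51.3%. In bulk RNA, fewer cells of a type and less RNA per cell cannot be told apart.

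With all 6 libraries, 1 gene was again called (*Rph3a*), against 2.41% of all genes, and 3 passed the adjusted p, namely *Rph3a* upward and *Unc13b* and *Unc13c* downward, where 2.73% of all genes passed upward and 2.27% downward. The median was then -0.17 over the 35 genes and 0.0083 over all genes, with 26 of 35 genes below 0, against 49.0%. In CPM, the 5-library groups did not overlap for 16 genes that were lower and 6 that were higher in Ezh2, against 23.4% and 21.5% of all tested genes. With 6 libraries they did not overlap for 15 lower and 3 higher genes, against 19.3% and 14.9%. Ezh2 replicate 3 lay outside the GFP range on the same side for 10 of the 11 genes that passed with 5 libraries, with *Cplx4* as the exception. *Rph3a*, *Unc13b*, *Unc13c*, *Pclo* and *Syt1* passed the adjusted p whichever of the 5 libraries was left out. *Sv2a* did not pass without Ezh2 replicate 1, *Rims1* did not without GFP replicate 2 or 3 or Ezh2 replicate 2, *Syt11* passed only without Ezh2 replicate 2, *Vamp2* only without GFP replicate 1, and *Cplx3* and *Cplx4* in none of these fits. Summed over the 35 genes, the GFP libraries held 1728, 1716 and 1741 CPM, Ezh2 replicates 1 and 2 held 1513 and 1483 CPM, and Ezh2 replicate 3 held 1190 CPM. In CPM the summed level was thus 13.4% lower in Ezh2 replicates 1 and 2. *Syt11*, *Syt1*, *Unc13c* and *Unc13b* supplied 57.1% of it in the GFP group. The fit also used scaling factors (TMM) of 0.948 for Ezh2 replicate 2, 1.014 for Ezh2 replicate 1 and 1.011 to 1.016 for the GFP libraries. CPM leaves these out and so places Ezh2 replicate 2 lower than the fit does, in this sum and in the comparisons of group overlap.

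**Figure D1:**
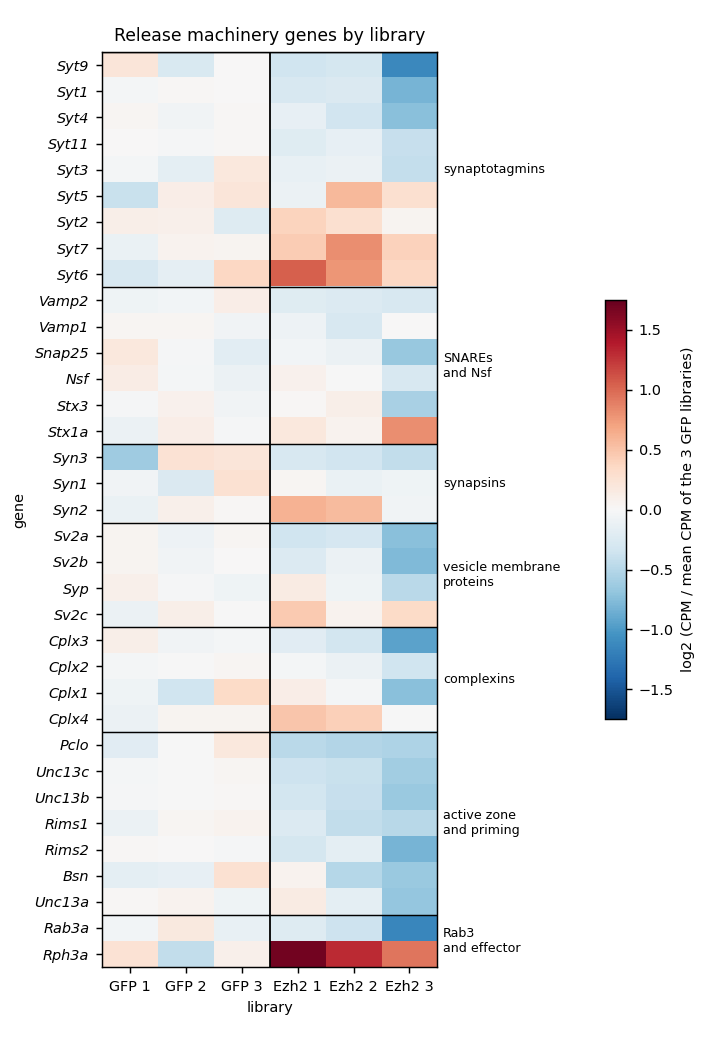
Heat map of the 35 release genes (rows, by role) in the 6 libraries (columns), colored by log2 of the CPM over the mean CPM of the 3 GFP libraries. The block of active zone and priming genes is blue in most cells of the 3 Ezh2 columns, *Rph3a* is red in all 3, and Ezh2 replicate 3 carries the deepest blue, with 23 of 35 genes below all other libraries.

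The active zone and priming genes were the group with the most genes that fell. All 7 had a log2 fold change below 0, with a median of -0.32, and 4 passed the adjusted p (*Unc13b*, *Unc13c*, *Pclo* and *Rims1*). Munc13 proteins open syntaxin and make docked vesicles ready to fuse. *Unc13c*, encoding Munc13-3 (ENSMUSG00000062151, chromosome 9, 73479422 to 73968966, minus strand, GRCm38), read 222, 226 and 232 CPM in the GFP libraries, 177 and 173 CPM in Ezh2 replicates 1 and 2, and 148 CPM in Ezh2 replicate 3. *Unc13b*, encoding Munc13-2 (ENSMUSG00000028456, chromosome 4, 43058953 to 43264871, plus strand), read 205, 208 and 211 CPM against 166 and 157 CPM, with 133 CPM in Ezh2 replicate 3. Every Ezh2 library was below every GFP library for both genes. The log2 fold change was -0.36 ± 0.049 (SE) for *Unc13c* (adjusted p = 9.54e-05, edgeR) and -0.35 ± 0.050 for *Unc13b* (adjusted p = 0.000121, edgeR). With 6 libraries the edgeR adjusted p was 0.0177 and 0.0236 in that order, and over all alternatives it ran from 5.18e-11 to 0.132 and from 3.87e-10 to 0.151. *Unc13a*, encoding Munc13-1, the main isoform of many brain synapses, was at 13.5 to 14.8 CPM in the GFP libraries and 15.7, 12.6 and 8.92 CPM in the Ezh2 libraries, with a log2 fold change of -0.00072 ± 0.11.

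Per kilobase of annotated exon, the split among the Munc13 genes differed little between the groups. *Unc13c* held 71.5% ± 0.31 of the family's level (SD, n = 3) in the GFP group and 70.8% ± 0.83 (n = 2) in Ezh2 replicates 1 and 2, and *Unc13b* held 25.4% ± 0.13 and 25.3% ± 0.33. The groups overlapped for both shares. As for all values per kilobase here, exons were merged over all annotated transcripts, giving 8796 bases for *Unc13c* and 22746 for *Unc13b*. In CPM the GFP means of these genes were close, at 226 and 208, so the size of their split rests largely on these lengths. *Unc13a* held 3.13% ± 0.19 and 3.98% ± 0.50, and 3.02% in Ezh2 replicate 3.

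*Pclo* encodes piccolo, a giant scaffold of the active zone (ENSMUSG00000061601, chromosome 5, 14514918 to 14863459, plus strand). It read 26.1, 29.9 and 33.9 CPM in the GFP libraries and 21.6, 21.0 and 20.6 CPM in Ezh2 replicates 1 to 3, so all 3 Ezh2 libraries were below the lowest GFP library. Its log2 fold change of -0.48 ± 0.10 was the lowest of the 35 genes (edgeR adjusted p = 0.00331). With 6 libraries the value was -0.47, and the edgeR adjusted p of 0.0531 missed the threshold, in a range of 4.1e-06 to 0.231 over all alternatives. *Rims1*, encoding the Rab3-binding scaffold RIM1, read 21.1, 23.3 and 23.8 CPM against 19.2 and 16.9 CPM, with 16.3 CPM in Ezh2 replicate 3 (log2 fold change -0.32 ± 0.093, edgeR adjusted p = 0.0269). The other scaffold genes did not pass. *Rims2* (RIM2) had a log2 fold change of -0.22 ± 0.082 with all Ezh2 libraries below the GFP libraries, and *Bsn*, encoding bassoon, which anchors ribbons, had -0.18 ± 0.15 with overlapping groups.

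The stretches of 250 bases before the annotated starts of the genes with the lowest adjusted p among these and of *Rph3a* are shown because H3K27 methylation by the overexpressed enzyme is known, as background, to favor regions rich in CpG. Sequences are from RefSeq (GRCm38.p6), 5' to 3' on the gene's strand, with each CpG in capitals; *Unc13b* lies at chr4:43058703-43058952 (plus), *Unc13c* at chr9:73969038-73969287 (minus), *Pclo* at chr5:14514668-14514917 (plus) and *Rph3a* at chr5:121010093-121010342 (minus).
Unc13b: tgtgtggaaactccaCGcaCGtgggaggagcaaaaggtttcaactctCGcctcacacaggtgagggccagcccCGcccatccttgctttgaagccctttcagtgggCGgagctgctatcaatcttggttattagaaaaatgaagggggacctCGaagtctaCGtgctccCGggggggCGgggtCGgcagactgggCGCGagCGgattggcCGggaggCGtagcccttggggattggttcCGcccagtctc
Unc13c: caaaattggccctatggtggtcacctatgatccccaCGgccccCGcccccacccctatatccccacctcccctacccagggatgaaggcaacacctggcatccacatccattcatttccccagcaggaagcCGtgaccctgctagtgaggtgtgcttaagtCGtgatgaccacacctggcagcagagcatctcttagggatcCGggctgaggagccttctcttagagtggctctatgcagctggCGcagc
Pclo: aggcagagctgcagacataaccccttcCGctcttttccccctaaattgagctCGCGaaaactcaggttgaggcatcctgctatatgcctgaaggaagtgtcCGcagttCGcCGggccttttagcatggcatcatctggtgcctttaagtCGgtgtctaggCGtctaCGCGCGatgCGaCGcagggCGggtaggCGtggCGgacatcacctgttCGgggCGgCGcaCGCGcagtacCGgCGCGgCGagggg
Rph3a: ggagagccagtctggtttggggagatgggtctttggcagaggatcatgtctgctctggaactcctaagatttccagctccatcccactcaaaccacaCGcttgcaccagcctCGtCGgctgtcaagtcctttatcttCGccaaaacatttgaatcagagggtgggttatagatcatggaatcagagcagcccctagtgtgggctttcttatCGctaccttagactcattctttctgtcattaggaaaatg

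The 4 windows differed in CpG content. *Pclo* had 25 CpG and *Unc13b* 16, whereas *Unc13c* had 6 and this *Rph3a* window had 5. The other windows of *Rph3a*, which start further inside the gene, had 12 and 4. Over 32851 windows of all genes the median was 6, and over the 38 windows of the 27 release genes that had one it was 12.5. Among the printed genes that fell, *Pclo* and *Unc13b* lay above the median of all windows and *Unc13c* lay at it. No chromatin measurement was used here, and a link between CpG content and the changes was not tested. Of 2 motifs searched on both strands, the palindromic cAMP response element TGACGTCA lay in 1.55% of all windows and in those of 1 release gene (*Syn1*). The palindromic consensus element of NRF1 lay in 0.782% of all windows and in those of 1 gene (*Bsn*, with 2 matches). Neither gene passed the test.

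*Rph3a* had the highest log2 fold change of the 35 genes. Rabphilin binds Rab3 on vesicles and takes part in docking. *Rph3a* (ENSMUSG00000029608, chromosome 5, 120940499 to 121010092, minus strand) read 3.70, 2.31 and 3.32 CPM in the GFP libraries, 9.999 and 7.65 CPM in Ezh2 replicates 1 and 2, and 5.95 CPM in Ezh2 replicate 3. All Ezh2 libraries were above all GFP libraries, and the Ezh2 replicate left out was the lowest of the 3. The log2 fold change was 1.51 ± 0.20, a 2.86-fold rise (edgeR adjusted p = 9.05e-05), and with 6 libraries it was 1.37 ± 0.24 (edgeR adjusted p = 0.023; range over all alternatives 1.94e-12 to 0.124). *Rab3a*, encoding the vesicle GTPase that rabphilin and RIM bind, read 24.7, 28.7 and 23.3 CPM against 21.8 and 19.95 CPM, with 11.6 CPM in Ezh2 replicate 3. Its log2 fold change of -0.28 ± 0.097 did not pass in the main comparison (edgeR adjusted p = 0.0585), although the groups did not overlap.

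**Figure D2:**
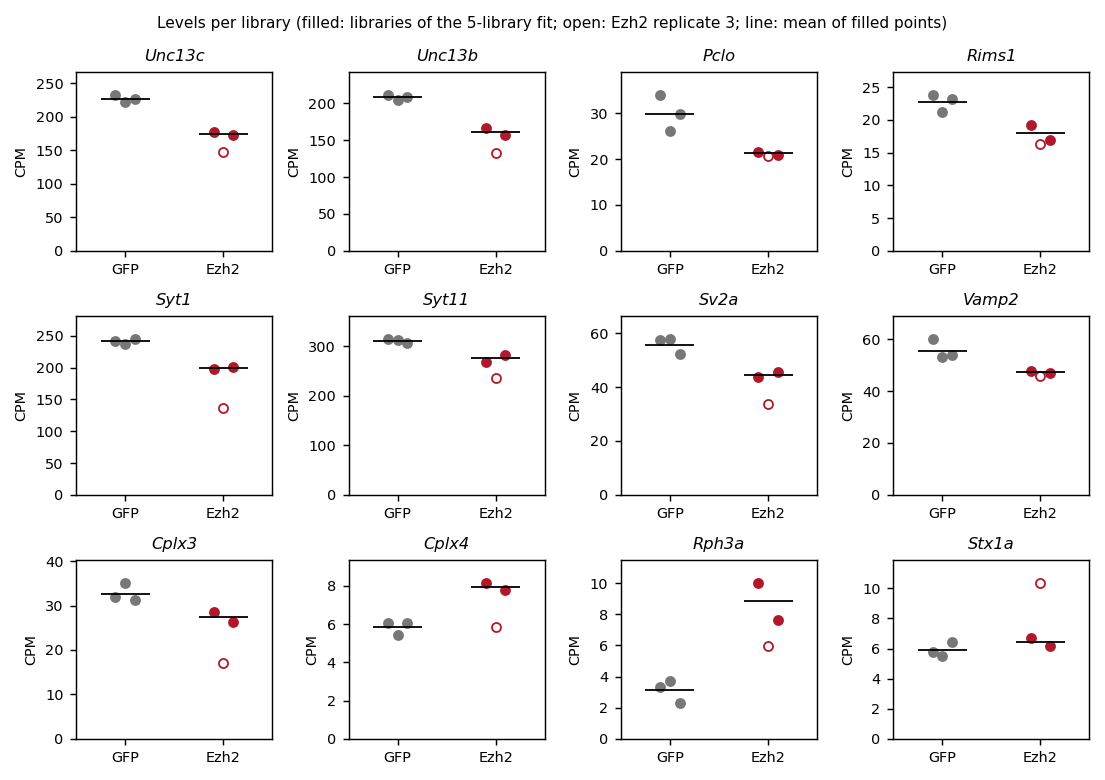
CPM of 12 release genes in each library, with GFP libraries in grey, Ezh2 replicates 1 and 2 as filled red points, Ezh2 replicate 3 as an open red point and the mean of the filled points as a line; every y axis starts at 0. *Rph3a* is higher and *Unc13b*, *Unc13c* and *Pclo* are lower in all 3 Ezh2 libraries, whereas *Stx1a* stands out at 10.3 CPM in Ezh2 replicate 3 only.

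Of the SNARE genes and *Nsf*, 1 of 6 fell at the adjusted p. *Vamp2*, encoding the main vesicle SNARE of brain synapses, read 53.0, 53.8 and 60.1 CPM in the GFP libraries and 47.9, 46.9 and 45.8 CPM in Ezh2 replicates 1 to 3. The groups did not overlap, and the log2 fold change was -0.22 ± 0.072 (edgeR adjusted p = 0.0463). *Snap25*, encoding the target membrane SNARE, read 44.1, 38.1 and 34.1 CPM against 37.5 and 36.1 CPM, with 24.4 CPM in Ezh2 replicate 3, and gave -0.065 ± 0.093 (edgeR adjusted p = 0.706). Its GFP libraries spanned both Ezh2 libraries of the comparison.

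The syntaxins differed between the Ezh2 libraries more than between the groups. *Stx3*, the ribbon syntaxin, read 38.4, 40.7 and 37.3 CPM in the GFP libraries and 39.3 and 41.5 CPM in Ezh2 replicates 1 and 2, but 26.3 CPM in Ezh2 replicate 3. *Stx1a*, the conventional syntaxin, read 5.50, 6.41 and 5.79 CPM, then 6.71 and 6.14 CPM, and 10.3 CPM in Ezh2 replicate 3. *Stx1a* was the only release gene with that library above all others. Neither gene passed: the log2 fold change was 0.070 ± 0.075 for *Stx3* and 0.13 ± 0.16 for *Stx1a*. Per kilobase of exon, *Stx1a* held 23.5% to 26.8% of the level of the pair in 5 libraries and 45.7% in Ezh2 replicate 3. T cell markers summed to 1069 CPM in that library and to 485 to 653 CPM in the others; their part in the *Stx1a* value was not tested. *Vamp1* and *Nsf*, the latter encoding the ATPase that takes spent SNARE complexes apart, had log2 fold changes of -0.17 ± 0.074 and 0.047 ± 0.067 and did not pass.

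**Figure D3:**
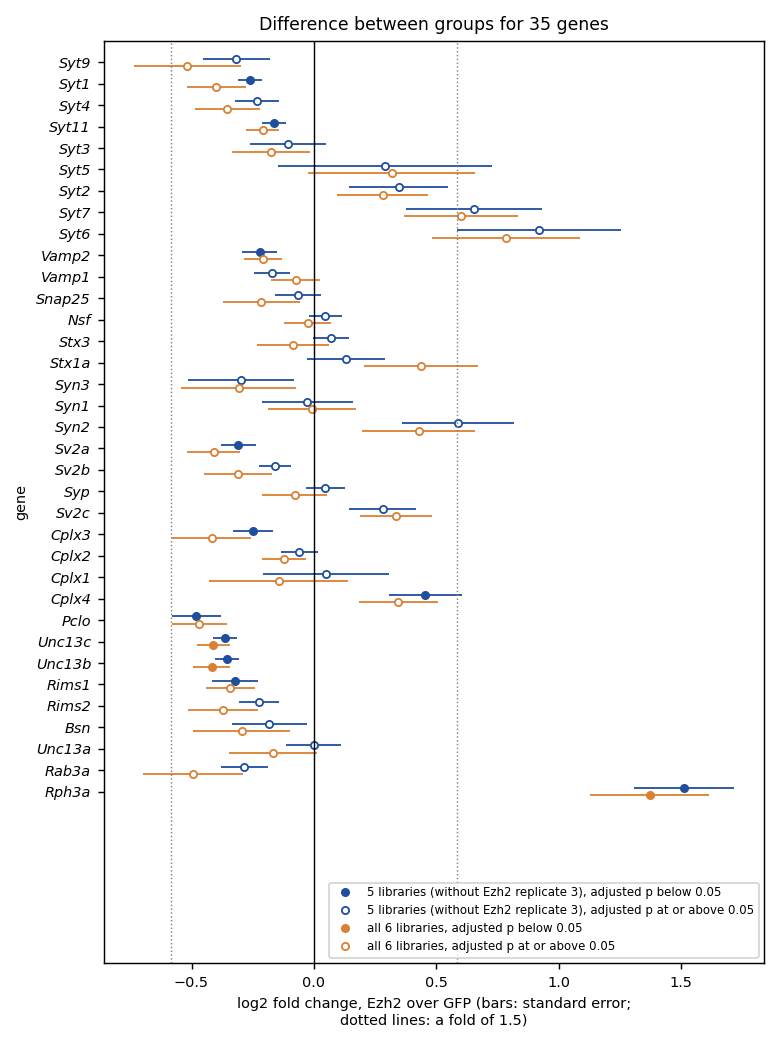
Log2 fold change of Ezh2 over GFP (x axis, with standard errors) for the 35 genes (y axis), without Ezh2 replicate 3 in blue and with all 6 libraries in orange; filled points have an adjusted p under 0.05 and dotted lines mark a fold of 1.5. Of the 11 filled blue points 9 lie left of 0, *Rph3a* is the only filled point past a dotted line, and 3 orange points are filled.

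Among the synaptotagmins, the abundant calcium sensor and its relative without calcium binding fell by small amounts. *Syt1*, the fast calcium sensor of release, read 237, 245 and 243 CPM in the GFP libraries, 198 and 202 CPM in Ezh2 replicates 1 and 2, and 137 CPM in Ezh2 replicate 3, with no overlap. Its log2 fold change was -0.26 ± 0.049 (edgeR adjusted p = 0.00153), and with 6 libraries -0.40 ± 0.12 (edgeR adjusted p = 0.0986; range over all alternatives 4.93e-06 to 0.291). *Syt11*, which does not bind calcium, read 311, 306 and 314 CPM against 268 and 282 CPM, with 235 CPM in Ezh2 replicate 3 (log2 fold change -0.16 ± 0.050, edgeR adjusted p = 0.0333). Per kilobase of exon *Syt11* was the most abundant of the 35 genes at 59.7 CPM per kilobase, followed by *Syt1* at 28.9 and *Unc13c* at 25.7 in the GFP group.

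The other 7 synaptotagmins did not pass. *Syt4* and *Syt9* had negative log2 fold changes of -0.23 ± 0.090 and -0.32 ± 0.14, with the Ezh2 libraries below the GFP libraries in CPM. For *Syt9* that gap was small, with 10.6 CPM in Ezh2 replicate 2 and 10.96 CPM in GFP replicate 2, and it does not hold under the scaling factors of the fit. *Syt6* and *Syt7*, at 0.990 ± 0.24 and 1.602 ± 0.11 CPM in the GFP group (SD, n = 3), had 0.92 ± 0.33 (edgeR adjusted p = 0.0742) and 0.65 ± 0.28 (edgeR adjusted p = 0.126), with all 3 Ezh2 libraries above the GFP libraries. For *Syt6* the groups nearly touched, with 1.279 CPM in Ezh2 replicate 3 and 1.269 CPM in GFP replicate 3. *Syt7* encodes a slow, high-affinity calcium sensor. *Syt2*, a fast sensor related to *Syt1*, had 0.35 ± 0.20, *Syt3* had -0.11 ± 0.16 and *Syt5* had 0.29 ± 0.44.

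Within the complexins, the ribbon paralogues passed in opposite directions. *Cplx3* read 35.03, 31.3 and 31.8 CPM in the GFP libraries, 28.4 and 26.3 CPM in Ezh2 replicates 1 and 2, and 17.1 CPM in Ezh2 replicate 3, with a log2 fold change of -0.25 ± 0.081 (edgeR adjusted p = 0.0487). *Cplx4*, found in photoreceptors, read 5.43, 6.03 and 6.05 CPM against 8.14 and 7.76 CPM, with 5.84 CPM in Ezh2 replicate 3, and gave 0.46 ± 0.15 (edgeR adjusted p = 0.0481). Both values lie close to the threshold, and neither gene passed with 6 libraries. *Cplx2* and *Cplx1*, the conventional complexins, did not pass at -0.059 ± 0.074 and 0.050 ± 0.26.

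The ratio of *Cplx4* to *Cplx3* reads was 0.155, 0.193 and 0.190 in the GFP libraries, 0.286 and 0.296 in Ezh2 replicates 1 and 2, and 0.341 in Ezh2 replicate 3. All 3 Ezh2 libraries were above all GFP libraries, by 1.63-fold on average in the 5-library comparison and 1.72-fold over the 6 libraries. The ratio was chosen after both genes were seen to pass in opposite directions, so it is a description without a test. Per kilobase of exon, *Cplx3* made up 50.4% ± 2.4 of the complexin level in the GFP group (SD, n = 3) and 44.2% ± 0.46 in Ezh2 replicates 1 and 2 (n = 2). *Cplx4* made up 13.7% ± 1.1 and 19.5% ± 0.25, and 20.4% in Ezh2 replicate 3. In that library *Cplx4* was within the GFP range and *Cplx3* below it.

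Photoreceptor markers are given beside *Cplx4*, since the gene is used by those cells. Of 10 rod markers, 7 rose at the adjusted p, against 9.38% of all tested genes. The 10 markers summed to 418 to 490 CPM in the GFP libraries, 736 to 777 CPM in Ezh2 replicates 1 and 2, and 433 CPM in Ezh2 replicate 3. Of 10 cone markers, 8 were called higher, where 3.73% of all tested genes were called in either direction. The cone sums were 62.3 to 66.8, 95.5 to 111 and 64.3 CPM. With 6 libraries 0 rod markers passed the adjusted p in edgeR, with 3 at an unadjusted p under 0.05, and 2 cone markers were called higher. *Cplx4* was high in the same 2 Ezh2 libraries and at the GFP level in the third. The part of photoreceptor RNA in the *Cplx4* value was not tested.

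**Figure D4:**
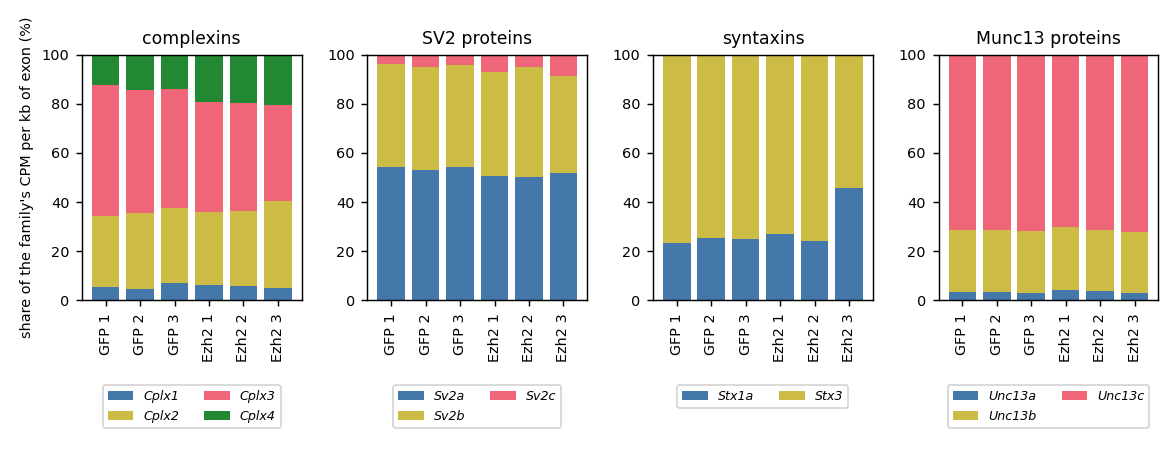
Share of each gene in its family's level per kilobase of exon (y axis, percent) in the 6 libraries (x axis) for complexins, SV2 proteins, syntaxins and Munc13 proteins. The *Cplx4* share is 13.7% on average in the GFP libraries and 19.5% in Ezh2 replicates 1 and 2, the *Stx1a* share is 45.7% in Ezh2 replicate 3, and the *Unc13c* share lies between 70.2% and 72.0% in all libraries.

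Of the vesicle membrane proteins, 1 of 4 fell. *Sv2a*, the SV2 isoform of most synapses, read 57.8, 52.2 and 57.4 CPM in the GFP libraries and 43.8, 45.6 and 33.6 CPM in Ezh2 replicates 1 to 3, without overlap (log2 fold change -0.31 ± 0.071, edgeR adjusted p = 0.00664). *Sv2b*, found at ribbon terminals, read 81.2, 75.4 and 79.3 CPM against 66.5 and 73.1 CPM, with 46.1 CPM in Ezh2 replicate 3, and gave -0.16 ± 0.065 (edgeR adjusted p = 0.116). *Sv2c* had 0.28 ± 0.14 and *Syp*, encoding synaptophysin, the abundant partner of synaptobrevin, had 0.047 ± 0.080, both with overlapping groups. Of the 3 synapsins, which tether vesicles in the reserve pool, 0 passed in edgeR, DESeq2 or limma-voom and 1 (*Syn2*) had an unadjusted p under 0.05 in edgeR, and *Syn3* passed, at a lower level, when GFP replicate 1 was left out. *Syn2* read 2.13, 2.46 and 2.34 CPM against 3.51 and 3.40 CPM, but 2.22 CPM in Ezh2 replicate 3 (log2 fold change 0.59 ± 0.23, edgeR adjusted p = 0.0954). *Syn1* had -0.026 ± 0.19 and *Syn3* -0.30 ± 0.22, both with overlapping groups.

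Grouped by synapse type, the 5 conventional paralogues (*Stx1a*, *Cplx1*, *Cplx2*, *Syn1* and *Syn2*) had a median log2 fold change of 0.050 and 0 of them passed the adjusted p in edgeR, with 1 at an unadjusted p under 0.05 (*Syn2*). DESeq2 and limma-voom each also gave 0 for them. The 4 ribbon paralogues (*Stx3*, *Cplx3*, *Cplx4* and *Sv2b*) had a median of -0.044, with 1 higher and 1 lower. The difference between the 2 sets was not tested.

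Other presynaptic genes were compared in the same fit, where 3.73% of all tested genes were called. At the adjusted p alone, 9.38% of all tested genes passed upward and 7.07% downward. Of 40 further release genes tested, 2 were called lower, *Rab3c* and *Syt10*, and 11 passed the adjusted p, 9 of them lower, with a median of -0.093. *Rab3c*, a relative of *Rab3a*, read 9.13, 7.52 and 7.97 CPM in the GFP libraries and 3.94, 4.82 and 3.36 CPM in Ezh2 replicates 1 to 3 (log2 fold change -0.89 ± 0.17, edgeR adjusted p = 0.00166). *Syt10* read 22.9, 19.8 and 20.7 CPM against 12.4 and 14.2 CPM, with 12.8 CPM in Ezh2 replicate 3 (log2 fold change -0.65 ± 0.10, edgeR adjusted p = 0.000413). Both were called with 6 libraries too. Of 10 vesicle recycling genes 9 were below 0 and 4 passed, all lower, with a median of -0.18. With 6 libraries 3 of the further release genes and 1 recycling gene passed, and as each library was left out of the 5 the counts ran from 6 to 8 and from 1 to 4. Of the vesicular glutamate transporter genes, *Slc17a7* (VGLUT1), used by photoreceptors and bipolar cells, rose by 0.32 ± 0.070 on the log2 scale in the 5-library comparison, and *Slc17a8* (VGLUT3), used by some amacrine cells, had -0.42 ± 0.082 (edgeR adjusted p = 0.00464 and 0.00183). With 6 libraries *Slc17a7* had 0.13 and did not pass, and its 26.8 CPM in Ezh2 replicate 3 lay below every GFP library, whereas *Slc17a8* had -0.49 and passed. Of 6 ribbon genes outside the module 1 was called, *Tulp1*, higher by 0.84 ± 0.14 (edgeR adjusted p = 0.00041) and not called with 6 libraries.

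Markers of several cell types also differed between the groups, in a fit where 9.38% of all tested genes rose and 7.07% fell at the adjusted p. The 8 Müller glia markers summed to 26575 to 27171 CPM in the GFP libraries, 24585 to 26169 CPM in Ezh2 replicates 1 and 2 and 19960 CPM in Ezh2 replicate 3, and 7 of them fell at the adjusted p while *Apoe* was called higher by 0.72 ± 0.051 (median log2 fold change of the list -0.28). With 6 libraries 4 fell. Amacrine markers summed to 510 to 530, 444 to 453 and 400 CPM. Of the 8 of 10 that were tested 3 fell and 1 rose, while *Chat* and *Slc18a3* were too low to be tested. Log2 fold changes in this list ran from -2.7 to 2.9, with 1 gene called lower and 1 called higher. With 6 libraries they ran from -2.9 to 2.7, again with 1 called in each direction. Bipolar markers summed to 683 to 696, 619 to 683 and 549 CPM, with 0 of 10 past the adjusted p in edgeR, DESeq2 or limma-voom and 3 at an unadjusted p under 0.05. RGC markers summed to 127 to 132, 149 to 161 and 166 CPM, and of the 8 tested 3 rose, against 2 with 6 libraries. Most of that sum in the GFP libraries was *Thy1*, the gene of the sort antigen, so it is no measure of RGC content alone. Immune lists were higher: 8 of 10 microglia and macrophage markers rose at the adjusted p, with sums of 1733 to 1919 CPM in the GFP libraries, 2263 to 2419 CPM in Ezh2 replicates 1 and 2 and 1655 CPM in Ezh2 replicate 3, and 9 of 10 T cell markers rose, with sums of 485 to 515, 620 to 653 and 1069 CPM. With 6 libraries 2 of each immune list rose. The part of these cell types in the release gene values was not tested.

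**Figure D5:**
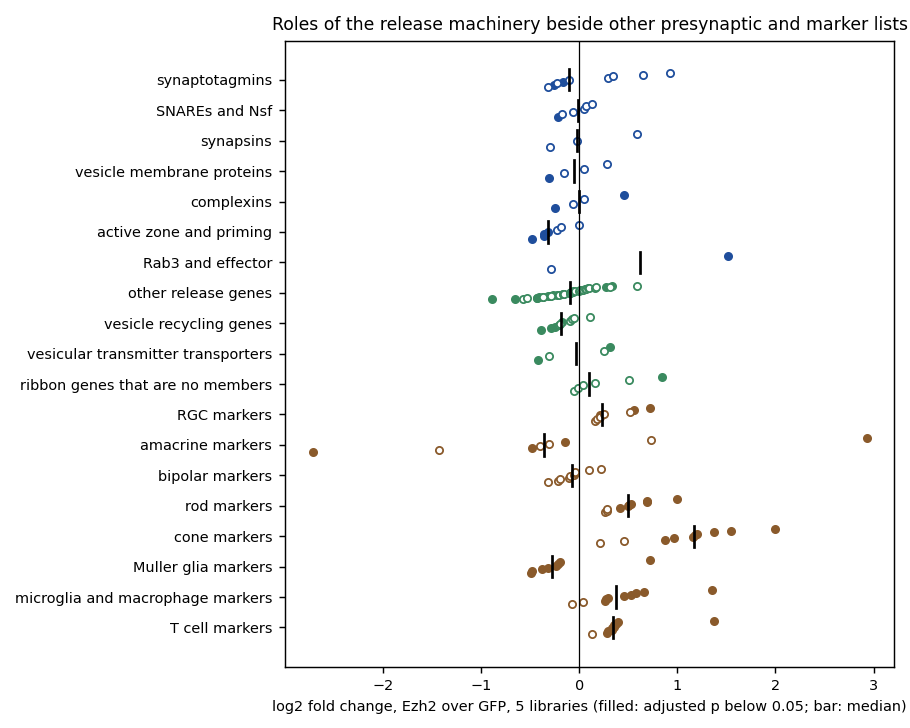
Log2 fold change of Ezh2 over GFP in the 5 libraries (x axis) for every tested gene of each role of the module (blue), of other presynaptic lists (green) and of marker lists (brown); filled points have an adjusted p under 0.05 and the bar is the list's median. Active zone and priming genes have a median of -0.32, Müller glia markers -0.28, amacrine markers -0.35 and rod markers 0.50.

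Counting limits apply to some values. If strand was not used in counting, reads of a gene and its antisense neighbor cannot be told apart, and exons of 11 release genes overlap an antisense gene: *Syt4*, *Syt6*, *Syt7*, *Syn1*, *Syn2*, *Syn3*, *Sv2b*, *Syp*, *Pclo*, *Unc13a* and *Rab3a*. For *Syn3* the partner *Timp3* had 112698 counts over all libraries beside 1206 of *Syn3*, and for *Pclo* the partners had 459 and 2 counts beside 4958. *Unc13a* shares 495 exon bases with *Colgalt1*, which had 14501 counts beside 2592 of *Unc13a*. Standard errors ran from 0.049 to 0.15 for the 22 genes at 10 CPM or more in the GFP group and from 0.14 to 0.44 for the 13 below, so small differences were not detectable for the latter.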

How the data were processed

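RNA-Seq was compared between 3 AAV2-*GFP* and 3 AAV2-*Ezh2* libraries. The authors deposited raw read counts per Ensembl gene. The submitters' processing notes name STAR 2.7.0d and GRCm38; the counting program, strand setting and annotation release were not given in the sources used here. All 6 count columns matched a sample label and 0 were left over. Symbols, positions and exon lengths came from GENCODE M21 (GRCm38), with 55480 of 55573 identifiers matched.

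Counts of GFP replicates 1 to 3 and Ezh2 replicates 1 and 2 were filtered (filterByExpr), scaled (TMM) and tested in R 4.3.3 with edgeR 4.0.16 (glmQLFTest), with Benjamini-Hochberg adjustment over all tested genes and two-sided p values. Called genes had an adjusted p under 0.05 and a fold above 1.5. CPM used library totals; a count of 0 allows up to 3 counts, or 0.0834 to 0.0981 CPM, and such floors cover counting error only. Named genes were those called or past the adjusted p, core genes and ribbon paralogues. The genes and lists were chosen with earlier results of these data known. Other fits used DESeq2 1.42.0, limma-voom 3.58.1, glmTreat, all 6 libraries, a block for the replicate number, all but 1 library, other scaling and other filters; robust dispersions were added after seeing the data. The fit was tested on simulated counts.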

Additional observations from a re-analysis of the deposited data

How the results depend on the processing

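*Rph3a* was the 1 gene called in the main comparison and under every alternative with 5 libraries. With all 6 libraries it was called too, but the count of called genes ran from 0 to 1 as each library was left out, with 0 without GFP replicate 1, 2 or 3 or Ezh2 replicate 1. The count past the adjusted p alone, 11 in the main comparison, was 3 with all 6 libraries, 7 with a replicate block in 5 libraries and 1 with a replicate block in all 6. It ran from 6 to 9 when each library was left out of the 5 (7 without GFP replicate 2, 7 without GFP replicate 3, 6 without Ezh2 replicate 1) and from 0 to 3 when each was left out of the 6. A lone Ezh2 library was assumed to vary like the GFP libraries. DESeq2 gave 9, limma-voom 10, size factors 11, library totals 10 and robust dispersions 12. *Cplx4* passed in none of the leave-one-out fits and lost the threshold with DESeq2, library totals and both other filters; *Cplx3* lost it with DESeq2 and limma-voom. *Rab3a* passed with the block in 5 libraries, robust dispersions, both other filters and without GFP replicate 3. *Syn3* passed without GFP replicate 1, *Syt9* without GFP replicate 2 and *Sv2b* without Ezh2 replicate 2, each among the 5 libraries.

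The median log2 fold change was -0.11 in the main comparison, -0.17 with all 6 libraries, -0.047 and -0.19 with a replicate block in 5 and 6 libraries, and -0.16 at a mean of at least 50 counts. It ran from -0.16 to -0.045 as each library was left out of the 5 and from -0.22 to -0.14 for the 6. Same-numbered libraries did not deviate together (correlations of -0.0051, -0.02 and -0.01), so the replicate numbers were not taken as pairs.

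Under the alternatives run, the genes that turned their sign were ones that did not pass the test in the main comparison. With all 6 libraries these were *Stx3* (-0.087), *Syp* (-0.078), *Cplx1* (-0.14) and *Nsf* (-0.024). With the block in 5 libraries they were *Syn1* (0.13) and *Nsf* (-7.2e-05), and with the block in all 6, *Stx3* (-0.11), *Syn1* (0.0051), *Syp* (-0.092), *Cplx1* (-0.15) and *Nsf* (-0.025). Over all fits that left out 1 of the 5 or of the 6 libraries, values ran from -0.099 to 0.59 for *Syt5*, -0.20 to 0.12 for *Stx3*, -0.31 to 0.037 for *Snap25*, -0.25 to 0.0072 for *Vamp1*, -0.14 to 0.15 for *Syn1*, -0.21 to 0.14 for *Syp*, -0.29 to 0.25 for *Cplx1*, -0.52 to 0.065 for *Bsn*, -0.35 to 0.14 for *Unc13a* and -0.082 to 0.11 for *Nsf*. The cause of these changes was not tested. Depth limits the genes under 10 CPM most.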

Other observations

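The direction of the log2 fold change divided with the level of the release genes, at a limit of 10 CPM in the GFP group that was chosen after the values were seen. Of the 22 genes at or above it, 19 were below 0, among them *Syt1*, *Unc13b*, *Unc13c* and *Sv2a*, and the exceptions were *Stx3*, *Syp* and *Nsf*. Over all 10799 tested genes at that level, 48.0% were below 0. Of the 13 genes under the limit, 10 were above 0, among them *Rph3a*, *Syt6*, *Syt7*, *Syn2* and *Cplx4*, against 45.0% of the 9442 tested genes at that level. Of these 10, *Rph3a* and *Cplx4* passed the adjusted p in edgeR. No test was made of the pattern.

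Ezh2 replicate 3 had *Syt9*, *Rab3a* and *Cplx3* at 6.005, 11.6 and 17.1 CPM, beside 10.3 and 10.6, 21.8 and 19.95, and 28.4 and 26.3 CPM in Ezh2 replicates 1 and 2 in the same order.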
